A study of Mus musculus with 12 samples.

Results

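The subject is the difference between 2 genotypes in their response to lipopolysaccharide (LPS), measured by RNA sequencing of mouse microglial preparations. All 12 libraries of the series enter it, in 4 groups of 3: untreated wild type (WT), LPS-injected wild type (WT-LPS), untreated CPEB1 knockout (CPEB1-KO) and LPS-injected knockout (CPEB1-KO-LPS). The quantity is the interaction on the log2 scale, that is CPEB1-KO-LPS minus CPEB1-KO, less WT-LPS minus WT. It equals the genotype difference with LPS less the genotype difference without LPS, so each value can be traced to a difference that was there before LPS, after LPS or both. Of the 23845 genes in the table, 15295 had enough counts to be tested. All animals were labelled C57BL6/J and were 3 to 4 months old, and each library came from 1 animal. LPS was injected 24 h before harvest. Cells were isolated on Percoll gradients, which enrich microglia by density, and libraries were built from polyadenylated RNA. Neither the LPS dose nor the design of the knockout allele is given in the sources used here.

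Microglia are the resident macrophages of the brain. They sense LPS, a component of the outer membrane of Gram-negative bacteria, through TLR4 with its partners Cd14 and Ly96, and answer through NF-kB and interferon signalling with cytokines, chemokines and acute-phase proteins while genes of the resting state are turned down. CPEB1 is an RNA-binding protein that recognises a short uridine-rich element in the 3' untranslated region of target mRNAs and controls the length of their poly(A) tails and their translation. Its relatives Cpeb2, Cpeb3 and Cpeb4 bind related elements. RNA abundance does not report poly(A) length or translation.

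Library totals lay between 5.02 and 13.5 M expected counts (M, 1e+06). Marker levels below are means of log2(TPM + 1) over a list, where TPM is transcripts per 1e+06 transcripts. Neuron markers were 8.03, 6.49 and 6.79 in WT, 8.72, 7.42 and 7.73 in WT-LPS, each in replicate order, so that replicate 1 was highest in both. They were 8.08 to 8.53 in CPEB1-KO and 7.55 to 8.34 in CPEB1-KO-LPS. The 7 defining microglial markers were present in all libraries. Untreated wild-type libraries stood at 8.95, 9.25 and 8.99, each above every untreated knockout library (8.52, 8.205 and 7.89). The genotypes overlapped after LPS, with a range of 6.31 to 8.29 for wild type and of 5.98 to 7.79 for knockout. Haemoglobin transcripts made up 1.503% of the counts in CPEB1-KO-LPS replicate 3, against 0.146% and 0.242% in the other 2 libraries of that group. The share was 1.041%, 1.158% and 1.627% in WT, 0.576% to 0.847% in CPEB1-KO and 0.129% to 0.228% in WT-LPS. These are bulk samples, in which fewer cells of a type and less RNA per cell cannot be told apart.

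The targeted gene was transcribed in every library. Cpeb1 (chromosome 7, 81347026 to 81455465, minus strand, mm10) stood at 19.95, 15.5 and 43.3 TPM in WT and at 17.6, 26.4 and 21.3 TPM in CPEB1-KO. With LPS it stood at 40.2, 24.1 and 45.1 TPM in WT-LPS, and in CPEB1-KO-LPS at 34.6, 40.6 and 24.0 TPM. The groups overlapped with and without LPS, and the interaction was 0.51 ± 0.44 (log2, SE; edgeR quasi-likelihood, adjusted p = 0.598). A value per gene cannot tell whether particular exons are missing, and genotypes are used here as labelled.

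Both genotypes mounted the inflammatory response. Of 24 cytokines and chemokines tested, 20 rose with LPS in WT and 21 rose in CPEB1-KO (edgeR quasi-likelihood test, Benjamini-Hochberg false discovery rate, FDR, of 0.05). Of 25 genes of innate activation and the acute phase, 24 rose in WT and 22 in CPEB1-KO. Across all genes tested, 4185 (27.4%) passed in WT, of which 1900 (12.4%) rose and 2285 (14.9%) fell. In CPEB1-KO 952 (6.22%) passed, of which 627 (4.1%) rose and 325 (2.12%) fell. The number in CPEB1-KO depended on single libraries. It was 607, 355 and 385 without CPEB1-KO replicates 1, 2 and 3, and 628 and 563 without CPEB1-KO-LPS replicates 1 and 2. In WT the number was 2714 without WT-LPS replicate 3. With limma voom and library quality weights the order was the other way round, at 3627 genes in WT and 5006 in CPEB1-KO. With limma on the authors' log2(TPM + 1) values, 4430 genes passed in WT and 3331 of them rose, so rises outnumbered falls there.

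Unequal numbers of genes past a threshold do not show that the responses differed, so the sizes were compared. The libraries of the 2 responses are separate, so genes chosen in one can be read in the other. The 1900 genes that rose in WT had a median log2 change of 1.15 there and of 0.54 in CPEB1-KO, where 1686 of them (88.7%) had the same sign. The 2285 genes that fell in WT had medians of -1.32 there and -0.40 in CPEB1-KO, with the same sign for 1896 (82.98%). Genes chosen in CPEB1-KO had medians of similar size in WT. The 627 that rose had medians of 2.08 in CPEB1-KO and 1.84 in WT, and the 325 that fell had medians of -1.49 and -1.66. The WT medians moved with the setting, which also changes the genes chosen. They were 2.945 and -2.318 without CPEB1-KO replicate 2, 2.964 and -2.296 without replicate 3, and 0.64 and -0.78 with voom and quality weights. An equal number of genes taken by smallest p in WT gave 1.86 in WT and 1.05 in CPEB1-KO for the 627 that rose, and -2.06 and -0.85 for the 325 that fell. Genes picked for a small p have inflated changes in the libraries that picked them, in either direction of this comparison.

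**Figure D1:**
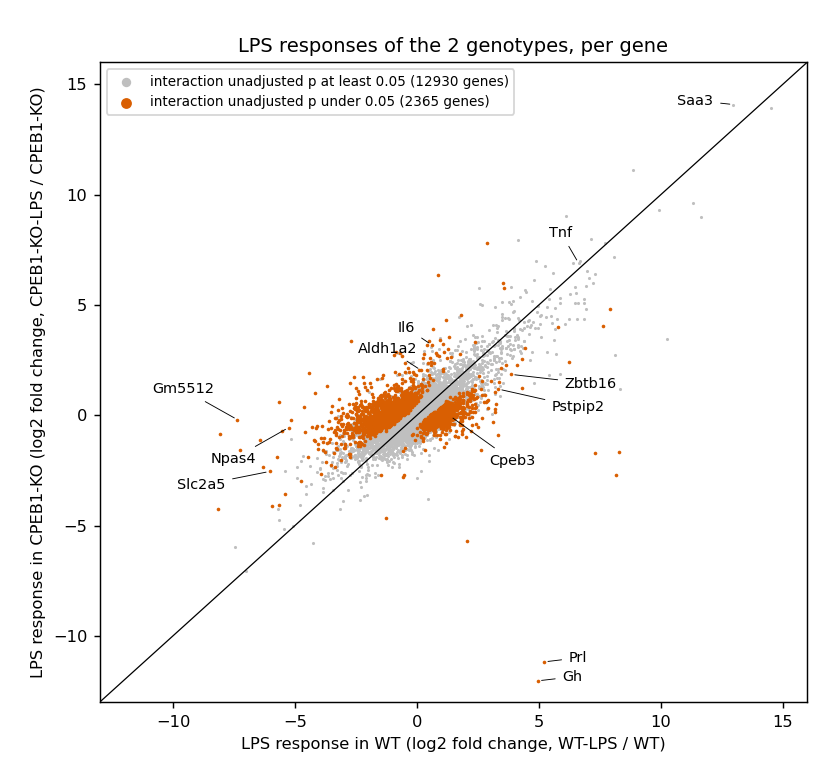
Each point is 1 of 15295 genes, with its LPS response in WT on the horizontal axis and in CPEB1-KO on the vertical axis, both as log2 fold changes; the line marks equal responses and orange points have an unadjusted interaction p under 0.05. Gm5512, Slc2a5 and Npas4 lie to the left, above the line of equal responses, while Saa3 and Tnf, induced in both genotypes, lie near it.

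A single gene passed the test of the interaction itself. It was 1 of 15295 genes at FDR 0.05 (0.00654%), with 2365 genes at an unadjusted p under 0.05 (15.5%), of which 1558 (10.2%) were positive and 807 (5.28%) negative. Of the 1558 positive genes, 1055 had fallen in WT, and of the 807 negative genes 555 had risen in WT. The interaction contains the WT response, so these overlaps are no separate evidence. The excess of positive genes was not kept with limma on the authors' TPM. At an unadjusted p under 0.05, 409 of 2592 genes were positive with log2(TPM + 1) and 366 of 2499 with log2(TPM + 0.1). The precision of a single gene was limited, with a median 95% interval of 0.902 log2 units on either side of the interaction, or 1.87-fold. DESeq2 called 301 genes (1.97%), of which 204 (1.33%) were positive and 97 (0.634%) negative, on the same counts, and limma voom with library quality weights called 253 (1.65%), of which 155 were shared with DESeq2, or 51.5% and 61.3% of the 2 lists.

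The gene was Gm5512 (chromosome 19, 12905320 to 12906841, plus strand, mm10), annotated as a transcribed unprocessed pseudogene. It read 19.9, 12.6 and 50.1 TPM in WT and 0.20, 0.34 and 0.11 TPM in WT-LPS. In CPEB1-KO it read 1.93, 0.63 and 1.63 TPM, and in CPEB1-KO-LPS 1.77, 0.64 and 1.13 TPM. Only the 3 WT libraries were high, and the genotypes did not overlap with or without LPS. Its log2 change with LPS was -7.36 ± 0.71 (SE) in WT and -0.20 ± 0.59 in CPEB1-KO, and the interaction was 7.16 ± 0.94 (adjusted p = 0.0479). The genotype difference was -4.60 ± 0.57 without LPS (adjusted p = 0.0081), and after it 2.56 ± 0.79 (adjusted p = 0.42).

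Gm5512 shares nearly all of its sequence with Rmnd1 (chromosome 10, 4401915 to 4432388, minus strand), which encodes a protein of mitochondrial translation. The longest GENCODE M21 transcripts of both aligned over 1522 bases with 1515 identical (99.5%), 7 mismatches and 0 gaps. The windows around 2 of the mismatches are shown because reads can be told apart only where they cover such a base. The differing base is in capitals, and substitutions are written as the Gm5512 base, its position from the 5′ end of the Gm5512 transcript, and the Rmnd1 base. For T341C:
Gm5512: acaggagcatgaTccacaaaccaaa
Rmnd1: acaggagcatgaCccacaaaccaaa
and for C951G:
Gm5512: cgctctctgcctCtcagtgaagctg
Rmnd1: cgctctctgcctGtcagtgaagctg
The other substitutions were G464A, A898G, G924A, G1158A and T1207C. Rmnd1 read 13.8, 11.8 and 15.3 TPM in WT, 12.3, 10.6 and 14.2 TPM in WT-LPS, then 17.9, 17.6 and 18.2 TPM in CPEB1-KO and 18.7, 15.6 and 8.3 TPM in CPEB1-KO-LPS, with an interaction of 0.17 ± 0.33. With the counts of both genes summed, the interaction was 1.66 (adjusted p = 0.195) and 0 genes passed. The authors' counting could have divided reads between the copies, so the value of Gm5512 is uncertain.

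The interaction was then traced to differences before and after LPS. Each of the 2365 genes was sorted by the unadjusted p of the genotype difference without and with LPS. For 1217 (51.5%) it was under 0.05 only without LPS, and for 523 (22.1%) only with LPS. A further 165 (6.98%) had it under 0.05 at both times with opposite signs, 1 gene at both times with the same sign, and 459 (19.4%) at neither. The 3 contrasts share libraries, so this sorting describes the genes and tests nothing. Among the single-library omissions the share without LPS only ranged from 36.7% to 66.1%, and the share with LPS only from 12.9% to 37.7%. Without CPEB1-KO-LPS replicate 3 the shares were 37.2% and 37.1%. The order of the shares turned round under 3 other settings. The shares before and after were 14.8% and 50% with neuron marker level as a covariate, and 30.4% and 50.4% with voom and quality weights. They were 29.0% and 48.5% with WT-LPS replicate 1 and CPEB1-KO-LPS replicate 3 left out. Whether more of the differences arose before or after LPS therefore depended on the method and the libraries.

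Few genes passed a test of genotype at either time. Without LPS 5 of 15295 genes passed (0.0327%), all lower in CPEB1-KO: Slc2a5, Cuedc1, Taf15, Gm13304 and Gm5512. With LPS 1 gene passed (0.00654%), Gm13304. DESeq2 called 519 genes without LPS and 90 with it, voom with quality weights 473 and 3966, and without WT replicate 1 there were 1292 genes without LPS. At an unadjusted p under 0.05 there were 2844 genes (18.6%) without LPS and 1653 (10.8%) with LPS. Gm13304 lies in the region of chromosome 4 that holds repeated Ccl21 and Ccl27 chemokine genes, so its counts are uncertain too. It read 44.9, 23.0 and 63.2 TPM in WT and 1.04, 0.40 and 1.36 TPM in CPEB1-KO, then 53.0, 26.0 and 23.7 TPM in WT-LPS, and in CPEB1-KO-LPS 0.32, 0.48 and 0.25 TPM. Its genotype difference was about as large at both times, -5.80 ± 0.52 and -6.38 ± 0.57, and its interaction was -0.58 ± 0.80.

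The genes named next are the 10 of each direction with the smallest unadjusted interaction p among genes whose mean TPM was 5 or more in some group and whose names are not those of predicted genes or cDNA clones. That limit on names leaves out Gm5512, described above, and D330041H03Rik. Their adjusted p in edgeR lay between 0.133 and 0.195, so none passed. DESeq2 called all 20 of them, and voom with quality weights and the fit without WT replicate 1 called 18 each. With WT-LPS replicate 1 and CPEB1-KO-LPS replicate 3 left out 3 of them were called. They were chosen by the interaction, so their values describe it. Of the 10 positive genes, 4 had a genotype difference at unadjusted p under 0.05 only before LPS and 6 had one at both times with opposite signs. Of the 10 negative genes, 3 had it only before, 2 only after and 5 at both times with opposite signs.

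Slc2a5 (chromosome 4, 150119283 to 150144169, plus strand), the fructose transporter GLUT5 that marks microglia in brain, had the clearest difference before LPS. It read 60.3, 25.8 and 25.6 TPM in WT and 3.59, 2.10 and 3.55 TPM in CPEB1-KO, so the genotypes were far apart without LPS. With LPS it read 0.80, 0.64 and 0.65 TPM in WT-LPS, and in CPEB1-KO-LPS 0.55, 0.33 and 0.66 TPM, and the genotypes overlapped at a low level. It fell with LPS in both, with log2 changes of -6.04 ± 0.41 in WT and -2.55 ± 0.40 in CPEB1-KO. The genotype difference was -3.88 ± 0.35 without LPS and -0.39 ± 0.44 with LPS, giving an interaction of 3.49 ± 0.57 (adjusted p = 0.133).

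Cuedc1, which encodes a CUE-domain protein, and Taf15, an RNA-binding protein of the FET family, also differed before LPS. Cuedc1 read 37.4, 40.7 and 55.4 TPM in WT, 20.5, 20.9 and 23.7 TPM in CPEB1-KO, 30.8, 26.1 and 32.6 TPM in WT-LPS, and in CPEB1-KO-LPS 35.9, 38.02 and 29.7 TPM. It fell in WT (-0.92 ± 0.19) and rose in CPEB1-KO (0.71 ± 0.19), so that the genotypes were separate without LPS and overlapped with it. Taf15 read 188, 114 and 252 TPM in WT, 83.8, 72.8 and 63.0 TPM in CPEB1-KO, 106, 101 and 112 TPM in WT-LPS, and in CPEB1-KO-LPS 141, 115 and 128 TPM. It likewise fell in WT (-1.13 ± 0.24) and rose in CPEB1-KO (0.85 ± 0.23). The genotype differences without LPS were -1.36 ± 0.19 for Cuedc1 and -1.63 ± 0.24 for Taf15 (adjusted p = 0.026 and 0.032), and with LPS 0.28 ± 0.19 and 0.34 ± 0.23 (adjusted p = 0.58 for both).

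Aldh1a2 (chromosome 9, 71215789 to 71296243, plus strand), an enzyme of retinoic acid synthesis, was high only in CPEB1-KO-LPS. It read 5.84, 4.41 and 5.51 TPM in WT, 9.28, 5.93 and 7.48 TPM in WT-LPS, then 4.38, 3.64 and 3.81 TPM in CPEB1-KO and 15.6, 20 and 12.3 TPM in CPEB1-KO-LPS. It rose with LPS in CPEB1-KO (2.04 ± 0.24), while its change in WT was 0.17 ± 0.24. Nupr1, a stress-induced transcriptional regulator, was lowest in CPEB1-KO, at 61.3, 70.9 and 57.4 TPM in WT, 58.2, 48.1 and 51.8 TPM in WT-LPS, then 36.6, 39.6 and 39.8 TPM in CPEB1-KO and 66.7, 88.2 and 86.6 TPM in CPEB1-KO-LPS. It rose in CPEB1-KO (1.15 ± 0.25). For both genes the genotypes did not overlap at either time, lower in CPEB1-KO without LPS and higher with it.

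Npas4, an activity-induced transcription factor of neurons, had a spread among replicates that was wide in WT. It read 10.5, 28.2 and 75.9 TPM in WT, 1.28, 1.2 and 1.38 TPM in WT-LPS, then 12.6, 11.7 and 7.77 TPM in CPEB1-KO and 6.33, 12.2 and 3.36 TPM in CPEB1-KO-LPS. It fell in WT (-5.26 ± 0.67) and its change in CPEB1-KO was -0.56 ± 0.55, for an interaction of 4.70 ± 0.84. Fdxr and Mecr, mitochondrial enzymes of electron transfer to cytochrome P450 and of fatty acid synthesis, were highest in WT replicate 3, at 91.99 and 75.0 TPM against 33.9 to 43.0 and 34.7 to 37.6 TPM in the other WT libraries. Their interactions were 2.25 ± 0.47 and 2.0 ± 0.41. Camk1, a calcium/calmodulin-dependent kinase, fell in both genotypes, with changes of -2.01 ± 0.19 in WT and -0.70 ± 0.18 in CPEB1-KO. The non-coding RNA Lhx1os completed the 10, with an interaction of 2.39 ± 0.50.

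All 10 negative genes rose with LPS in WT. Pstpip2, an adaptor protein that restrains inflammation in macrophages, read 2.85, 1.43 and 1.41 TPM in WT and 19.6, 31.8 and 21.8 TPM in WT-LPS. In CPEB1-KO it read 5.79, 8.59 and 7.83 TPM, and in CPEB1-KO-LPS 15.1, 15.6 and 17.8 TPM. It rose in both genotypes, by 3.34 ± 0.34 and 1.19 ± 0.30, and the genotypes did not overlap at either time. Its genotype difference was 1.62 ± 0.33 without LPS and -0.53 ± 0.29 with LPS.

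Zbtb16 (chromosome 9, 48654297 to 48836222, minus strand), a zinc-finger transcription factor induced by glucocorticoids, rose in both genotypes and further in WT. It read 1.33, 1.28 and 1.43 TPM in WT, 14.5, 29.2 and 30.95 TPM in WT-LPS, then 2.48, 3.14 and 4.12 TPM in CPEB1-KO and 10.3, 14.1 and 9.91 TPM in CPEB1-KO-LPS. The genotypes were separate at both times with opposite order. The responses were 3.87 ± 0.34 and 1.85 ± 0.30, and the interaction was -2.01 ± 0.43 (adjusted p = 0.195).

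Arid1b, a subunit of the SWI/SNF chromatin remodeller, and Ly6c1, a surface protein of endothelial cells, were the 2 negative genes with a genotype difference at unadjusted p under 0.05 only after LPS. Arid1b read 6.67, 5.34 and 5.17 TPM in WT, 14.7, 13.9 and 17.2 TPM in WT-LPS, then 8.24, 9.26 and 9.57 TPM in CPEB1-KO and 8.77, 10.1 and 8.25 TPM in CPEB1-KO-LPS. It rose in WT (1.05 ± 0.17) and its change in CPEB1-KO was 0.04 ± 0.17. Ly6c1 rose in WT, from 22.0, 15.8 and 9.21 TPM to 53.3, 40.8 and 94.6 TPM, and read 20.02, 34.3 and 39.2 TPM in CPEB1-KO and 16.6, 15.1 and 23.1 TPM in CPEB1-KO-LPS. The remaining 6 rose in WT and had changes of -0.55 to 0.32 in CPEB1-KO. They were Rap1gap2, a GTPase-activating protein for Rap1 (-1.44 ± 0.28), the postsynaptic scaffold Shank2 (-1.85 ± 0.39), the kelch protein gene Klhl34 (-2.82 ± 0.64), Luzp1, which encodes a cytoskeletal protein (-1.07 ± 0.25), the ubiquitin ligase Hecw2 (-1.34 ± 0.32) and the mannosyltransferase Tmtc3 (-1.23 ± 0.30), with interactions in parentheses. Corrected for transcript length and GC content, the values were -0.79 for Hecw2 and -0.69 for Luzp1.

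**Figure D2:**
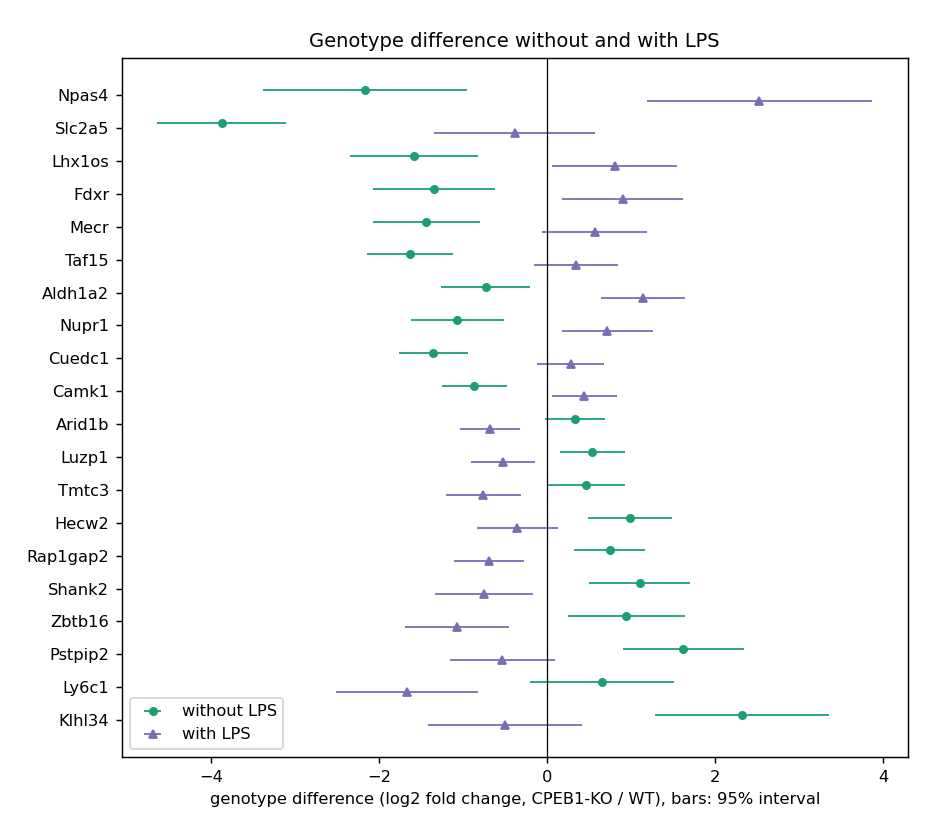
Genotype difference (log2 fold change, CPEB1-KO over WT) without LPS (circles) and with LPS (triangles), with 95% intervals, for the 10 positive and 10 negative genes with the smallest unadjusted interaction p at 5 TPM or more in some group, predicted genes and cDNA clones aside. Slc2a5, Taf15 and Cuedc1 lie far below 0 without LPS and have intervals that include 0 with LPS.

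Among the cytokines, the difference was largest relative to its error for Il6. Il6 (chromosome 5, 30013114 to 30019981, plus strand), a pleiotropic inflammatory cytokine, read 2.23, 3.48 and 1.87 TPM in WT and 5.63, 4.94 and 4.29 TPM in WT-LPS. It read 2.48, 0.73 and 1.04 TPM in CPEB1-KO and 8.45, 10.01 and 17.6 TPM in CPEB1-KO-LPS. The genotypes overlapped without LPS and were separate with it. The genotype difference of Il6 was -1.19 ± 0.605 without LPS and 1.40 ± 0.49 with LPS. It was at an unadjusted p under 0.05 only with LPS, but both values enter the interaction. Counts without LPS were low, at a sum of 30 in WT and 24 in CPEB1-KO. Il6 rose in CPEB1-KO (3.19 ± 0.56, adjusted p = 0.0041), its change in WT was 0.61 ± 0.55, and the interaction was 2.59 ± 0.78 (95% interval 0.90 to 4.27, adjusted p = 0.203).

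The monocyte chemokines Ccl7 and Ccl2 rose in both genotypes. Ccl7 read 13.1, 12.1 and 15.8 TPM in WT-LPS, and in CPEB1-KO-LPS 30.9, 30.3 and 86.2 TPM, from 0.67 to 1.34 TPM in the 6 libraries without LPS, and its interaction was 2.24 ± 1.00 (adjusted p = 0.31). Ccl2 reached 135, 192 and 204 TPM in WT-LPS, and in CPEB1-KO-LPS 159, 190 and 369 TPM, with overlapping genotypes and an interaction of 1.24 ± 0.64. In the 3 cases the highest library was CPEB1-KO-LPS replicate 3. Without it the interaction of Il6 was 2.03 (adjusted p = 0.192), that of Ccl7 was 1.33 and that of Ccl2 was 0.58.

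Other inflammatory genes rose in both genotypes with wide intervals for the difference. Tnf read 177, 256 and 528 TPM in WT-LPS, and in CPEB1-KO-LPS 99.4, 84.5 and 518 TPM, with an interaction of 0.27 (95% interval -2.24 to 2.78). The intervals were -0.50 to 3.81 for Il1b, the interleukin 1 beta gene, -1.44 to 2.46 for the T cell chemokine gene Cxcl10 and -2.17 to 0.68 for Lcn2, which encodes an iron-sequestering protein of innate defence. Each of these intervals includes 0 and also includes changes of more than 1.5-fold. Saa3, an acute-phase serum amyloid, stood at 5796, 11568 and 6286 TPM in WT-LPS, and in CPEB1-KO-LPS at 4842, 11717 and 4666 TPM, from 0 to 1.68 TPM without LPS, and the genotypes overlapped. The sign of the interactions of Tnf, Cxcl10 and Saa3 rested on single libraries. Without CPEB1-KO-LPS replicate 3 that of Tnf was -1.34 and that of Cxcl10 -0.070, and without WT replicate 1 that of Saa3 turned from 1.12 to -2.66.

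Over whole lists, the interaction had a median of 0.40 for the 24 cytokines and chemokines and of -0.45 for the 25 genes of innate activation, beside 0.05 for all genes tested. At an unadjusted p under 0.05 there were 2 positive and 0 negative genes in the first list, and 0 in the second, beside 15.5% of all genes. The median of the cytokines turned to -0.34 without CPEB1-KO-LPS replicate 3 and to -0.01 without WT-LPS replicate 1. Medians for the LPS receptor and its adaptors (0.04, 22 genes), NF-kB subunits and feedback (0.11, 21 genes) and interferon-stimulated genes (-0.23, 32 genes) were close to that of all genes relative to the spread of their members. Without CPEB1-KO-LPS replicate 3 they were -0.45, -0.49 and -0.84 in the same order, beside 0.02 for all genes. Without CPEB1-KO replicate 1 the interferon median was 0.54.

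The list of homeostatic genes, which mark resting microglia, had a median LPS response of -1.604 in WT and -1.04 in CPEB1-KO. Of its 26 genes, 12 fell in WT and 5 in CPEB1-KO, beside 14.9% and 2.12% of all genes tested. The list's median genotype difference was -1.13 without LPS and -0.40 with LPS, and its median interaction was 0.69, with 23 of 26 values above 0. Slc2a5 and Crybb1 were the 2 members at an unadjusted interaction p under 0.05, or 7.69% beside 15.5% of all genes tested. Crybb1, a crystallin gene used as a microglial marker, read 231, 230 and 222 TPM in WT and 116, 88.4 and 103 TPM in CPEB1-KO. After LPS it lay at 2.6 to 7.67 TPM in wild type and at 3.54 to 9.94 TPM in knockout. The genotypes were separate without LPS and overlapped with it. Its interaction was 1.61, and 0.84 without CPEB1-KO-LPS replicate 3.

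The purinergic receptor P2ry12 was also lower in CPEB1-KO without LPS and overlapped with it, at 441, 505 and 474 TPM in WT, 307, 280 and 238 TPM in CPEB1-KO, 16.3, 78.8 and 57.3 TPM in WT-LPS, and in CPEB1-KO-LPS 18.1, 9.79 and 71.7 TPM. Its interaction was 0.68 (95% interval -1.38 to 2.73). The intervals for Tmem119, a microglial membrane protein, Cx3cr1, the fractalkine receptor, and Trem2, a lipid-sensing receptor, were -0.61 to 2.79, -0.05 to 3.30 and -0.91 to 3.28. Without CPEB1-KO-LPS replicate 3 the interaction of P2ry12 turned to -0.82 and that of Trem2 to -0.26, and those of Tmem119 and Cx3cr1 were 0.24 and 0.45. In the LPS groups the homeostatic list ran opposite to the neuron list in part. WT-LPS replicate 1, with the highest neuron markers, stood at 5.62 against 7.12 and 6.81, and CPEB1-KO-LPS replicate 3 stood at 6.85 against 5.75 and 5.08. Without CPEB1-KO-LPS replicate 3 the median interaction of the list was -0.25, and with neuron markers as a covariate it was 0.06. The part of preparation purity in the list's values was not tested.

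Mertk, a receptor for engulfment of apoptotic cells, had its genotype difference after LPS. It read 30.1, 24.7 and 20.5 TPM in WT, 26.0, 25.4 and 25.6 TPM in CPEB1-KO, 22.2, 51.6 and 49.4 TPM in WT-LPS, and in CPEB1-KO-LPS 11.4, 13.9 and 22.0 TPM. The genotypes overlapped without LPS and were separate with it, by a narrow margin between WT-LPS replicate 1 and CPEB1-KO-LPS replicate 3. The difference was -0.30 ± 0.36 without LPS and -1.28 ± 0.36 with LPS (adjusted p = 0.36), and the interaction was -0.99 ± 0.50 (adjusted p = 0.367). Leaving out those 2 libraries, which lie closest to the other genotype for this gene, gave an interaction of -1.84 (adjusted p = 0.0283). Their removal widens the difference by itself, so this value is no separate evidence.

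The relatives of the targeted gene rose with LPS in WT, and their changes in CPEB1-KO did not pass the threshold. Cpeb3 (chromosome 19, 37021291 to 37208601, minus strand) read 6.48, 5.27 and 3.64 TPM in WT and 8.89, 13.8 and 15.4 TPM in CPEB1-KO. With LPS it read 20.5, 12.4 and 18.5 TPM in WT-LPS, and in CPEB1-KO-LPS 11.6, 14.6 and 10.3 TPM. The genotypes were separate without LPS and overlapped with it. Its changes were 1.36 ± 0.26 and -0.03 ± 0.25, and its interaction was -1.39 ± 0.36 (adjusted p = 0.195).

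Cpeb2 read 13.4, 9.54 and 13.8 TPM in WT, 28.8, 46.8 and 44.2 TPM in WT-LPS, then 17.8, 25.5 and 22.97 TPM in CPEB1-KO and 24.2, 28.2 and 23.8 TPM in CPEB1-KO-LPS. Cpeb4 read 14.6, 10.4 and 12.1 TPM in WT, 33.9, 27.9 and 36.3 TPM in WT-LPS, then 19.2, 27.8 and 24.5 TPM in CPEB1-KO and 21.9, 30.5 and 20.5 TPM in CPEB1-KO-LPS. For both, CPEB1-KO lay between WT and WT-LPS. Responses in WT were 1.38 ± 0.23 and 1.06 ± 0.19, responses in CPEB1-KO were 0.24 ± 0.22 and 0.06 ± 0.19, and the interactions were -1.14 ± 0.32 and -0.99 ± 0.27 (adjusted p = 0.195 for both). DESeq2 called the interaction of Cpeb3 and Cpeb4, and voom with quality weights called that of Cpeb2. These 3 transcripts are long, at 5899 to 7050 bases, and genes of that length as a class had negative median interactions. With a correction for length and GC content the interactions were -1.12 for Cpeb3, -0.76 for Cpeb2 and -0.59 for Cpeb4 (adjusted p = 0.311, 0.365 and 0.35).

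**Figure D3:**
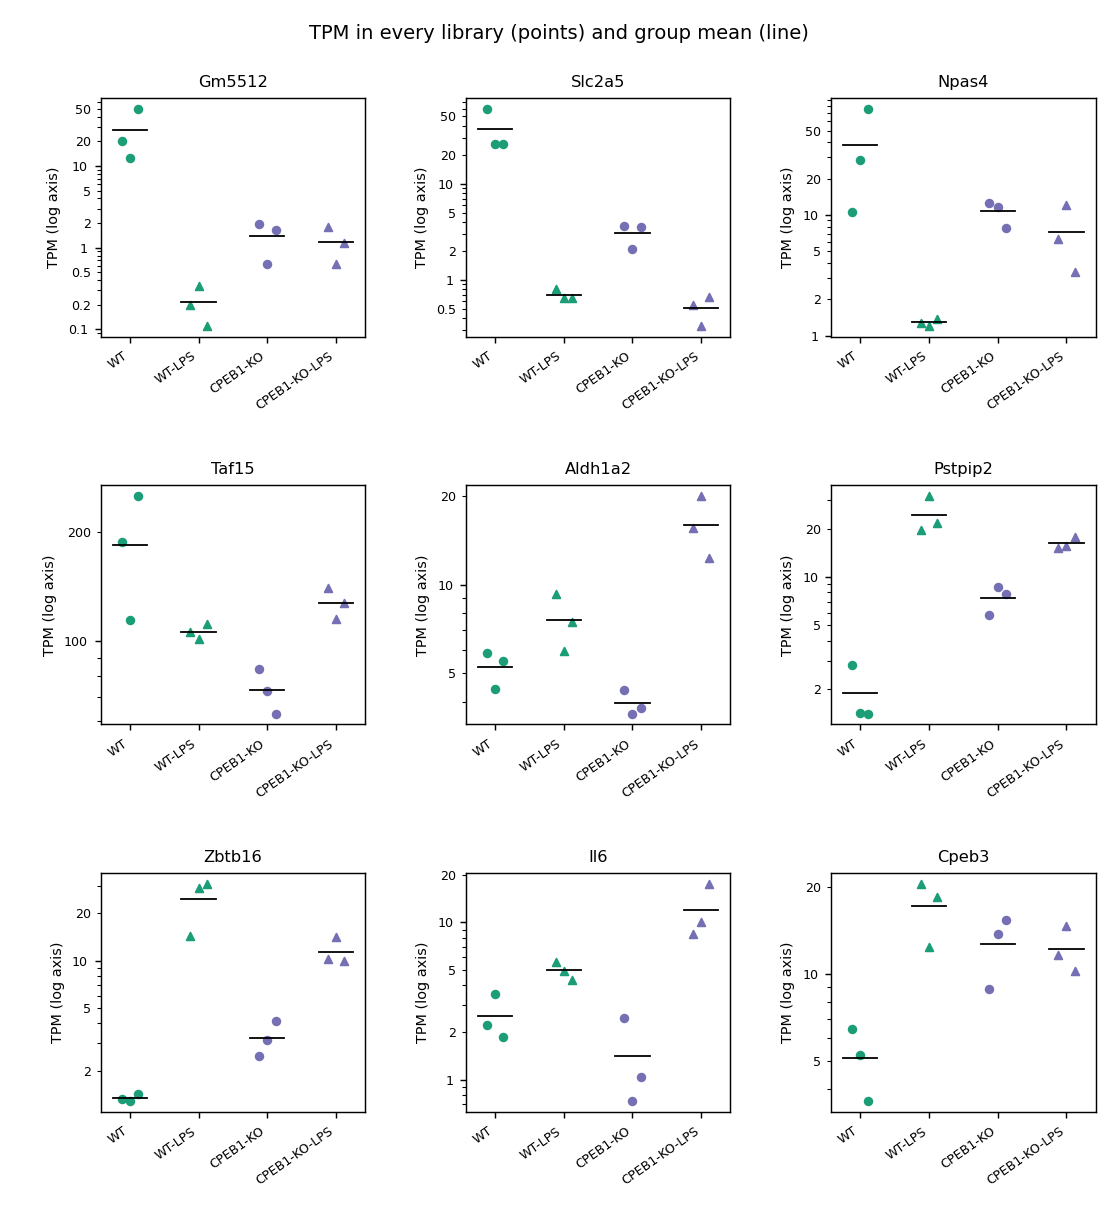
TPM on a log axis for 9 genes in each of the 12 libraries (points, 3 per group) with the group mean (line). Gm5512, Slc2a5 and Taf15 are highest in WT, Aldh1a2 and Il6 are highest in CPEB1-KO-LPS, and Pstpip2, Zbtb16 and Cpeb3 are highest in WT-LPS.

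The cytoplasmic polyadenylation list as a whole held 35 tested genes, of which 3 were positive and 3 negative at an unadjusted p under 0.05, or 17.1% beside 15.5% of all genes tested. The 3 negative genes were Cpeb2, Cpeb3 and Cpeb4. Members of the list ran both ways, from -1.39 to 1.38, with 14 values above 0 and 21 below. The median interaction of the list was -0.19, or 0.075 with the length and GC correction. Regulators of AU-rich element decay, which control the stability of cytokine mRNAs, had 0 positive and 4 negative genes of 21, or 19.05% called, and a median of -0.26. With the length and GC correction the list had 1 positive and 0 negative genes and a median of -0.12. Over all genes of that fit, 1736 of 14633 were under 0.05, 1147 of them positive. Among them Zc3h12c, a CCCH zinc-finger protein of the Regnase family, rose in WT from 1.13, 1.46 and 1.66 TPM to 6.78, 23.2 and 25.5 TPM, and read 2.18, 2.56 and 1.93 TPM in CPEB1-KO and 3.70, 5.77 and 8.52 TPM in CPEB1-KO-LPS. Its genotype difference was 0.33 ± 0.50 without LPS and -1.52 ± 0.46 with LPS. Rc3h1, which encodes the RNA-binding ubiquitin ligase Roquin, and Elavl1, the mRNA-stabilising protein HuR, had interactions of -0.99 ± 0.35 and -0.52 ± 0.23. Their longest transcripts have 11010 and 5743 bases, and the corrected interactions were -0.43 and -0.19.

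Of the other lists, genes of the disease-associated microglial state had 1 positive and 3 negative of 22, or 18.2% beside 15.5% of all genes tested. Their median interaction was 0.32, with 15 of 22 values above 0, and it was -0.19 without CPEB1-KO-LPS replicate 3. The positive gene was the chemokine gene Ccl6, at 1.465 ± 0.66, or 0.67 without that library. Spp1, osteopontin, rose in WT (2.33 ± 0.34), its change in CPEB1-KO was 1.10 ± 0.33 (adjusted p = 0.065), and the interaction was -1.23 ± 0.46. In the phagocytosis list of 34 genes, Cd47, the signal that restrains engulfment, had an interaction of -1.4 ± 0.48, and the scavenger receptor gene Cd36 had 1.18 ± 0.50. In the glycolysis list of 21 genes, Slc2a1, the glucose transporter GLUT1, and Hif1a, a transcription factor of the hypoxia response, rose in WT (1.37 ± 0.21 and 1.62 ± 0.27) with interactions of -0.81 ± 0.30 and -0.88 ± 0.38. Immediate-early and heat shock genes had a median interaction of -0.54 (25 genes, 1 positive and 0 negative, or 4%), and those of the glucocorticoid response had -0.40 (15 genes, 0 positive and 2 negative, or 13.3%). Lysosomal genes (0.37, 26 genes) held 2 positive members, or 7.69%, and their median was -0.11 without CPEB1-KO-LPS replicate 3. These were Tfeb, a master regulator of lysosomal genes, at 1.06 ± 0.33, and Ctsf, a cathepsin gene, at 1.03 ± 0.30, or 0.64 with the length and GC correction.

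Marker lists of other cells had medians in both directions. Their counts stand beside 15.5% of all genes tested, 10.2% positive and 5.28% negative. Neuron markers had a median of -0.67, with 13 of 14 values below 0 and 3 negative at an unadjusted p under 0.05, or 21.4%. Their median was -1.28 with 8 negative genes without WT replicate 1, and -0.24 with 2 without WT-LPS replicate 1. Over all genes, 3331 of 15550 were under 0.05 in the first of these fits, 1977 of them positive. In the second 2386 of 15508 were, 1243 of them positive. Astrocyte markers had -0.61 (11 of 11 below 0, 1 negative, or 9.09%), endothelial and mural markers -0.91 (2 positive and 5 negative of 16, or 43.8%) and monocyte markers -1.29 (8 of 8 below 0, 1 negative, or 12.5%). Monocyte markers stood at 3.97 to 4.75 in WT-LPS, above the 2.73 to 3.52 of CPEB1-KO-LPS, and at 2.44 to 2.79 and 1.74 to 3.06 without LPS, so this difference was seen after LPS. Ccr2, the chemokine receptor of inflammatory monocytes, read 2.47, 2.30 and 2.74 TPM in WT-LPS, and in CPEB1-KO-LPS 0.59, 0.32 and 0.80 TPM. It fell in CPEB1-KO (-2.69 ± 0.62), and its interaction was -2.16 ± 0.83.

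Other marker lists had positive medians. Erythroid markers had a median of 2.85, with 6 of 6 above 0 and 5 positive at an unadjusted p under 0.05, or 83.3% beside 10.2% of all genes. Hbb-bs, a beta-globin gene, read 2719, 4284 and 3354 TPM in WT-LPS, and in CPEB1-KO-LPS 2949, 4880 and 24553 TPM. Without CPEB1-KO-LPS replicate 3 the erythroid median was 1.09 with 2 such genes. In that fit 2726 of 15570 genes were under 0.05, 1759 of them positive. Border macrophage markers had a median of 1.30 (4 positive and 0 negative of 10, or 40%), and T and NK cell markers 1.65 (1 positive of 9, or 11.1%). Gzma, a granzyme of cytotoxic lymphocytes, read 19.6, 10.1 and 7.94 TPM in WT and 1.79, 4.10 and 4.66 TPM in CPEB1-KO, then 35.5, 28.5 and 38.2 TPM in WT-LPS, and in CPEB1-KO-LPS 30.9, 30.2 and 34.3 TPM. It rose in both genotypes, from separate levels to overlapping ones, with an interaction of 2.15 ± 0.50. The part of other cells in the interactions of genes that they share with microglia was not tested.

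Pituitary hormone transcripts had the most negative fitted interactions and came from single libraries. Gh, growth hormone, read 4952 TPM in CPEB1-KO replicate 2 and 0.25 and 0 TPM in the other CPEB1-KO libraries, and 3158 TPM in WT-LPS replicate 3 against 0.62 and 12.5 TPM. Prl, prolactin, read 1249 TPM in CPEB1-KO replicate 2 and 490 TPM in WT-LPS replicate 3, and at most 7.76 TPM in every other library. Both genes were named after their values were seen.

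The sign of the interaction varied with transcript length. Genes with a GENCODE M21 transcript length, 95.7% of those tested, were placed in 5 groups of equal size. The median interaction was 0.43 in the group of shortest genes (median 1434 bases), then 0.17, 0.03 and -0.09, and -0.31 in the group of longest genes (median 6836 bases). Nearly all of it came from the WT response, whose medians ran from -0.40 to 0.28, while those of CPEB1-KO ran from 0.01 to -0.04. In the shortest group 18.8% of genes were positive and 0.649% negative at an unadjusted p under 0.05, and in the longest 3.93% and 14.7%. The 10 named positive genes had a median length of 2331 bases and the 10 named negative genes of 6279 bases.

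Groups by GC content showed a gradient of opposite sign, from -0.16 in the lowest to 0.34 in the highest. After each library was corrected for length and GC content, the medians of the length groups lay between -0.01 and 0.03. In that separate fit of 14633 genes, 1736 had an unadjusted p under 0.05 and 0 passed the FDR. By library, the deviation of the shortest group from its mean over libraries was 0.19, 0.23 and 0.10 log2 units in WT and -0.08, -0.21 and -0.39 in WT-LPS, against -0.01 to 0.10 in the 6 libraries labelled knockout. The part of RNA quality or library preparation in this gradient was not tested.

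**Figure D4:**
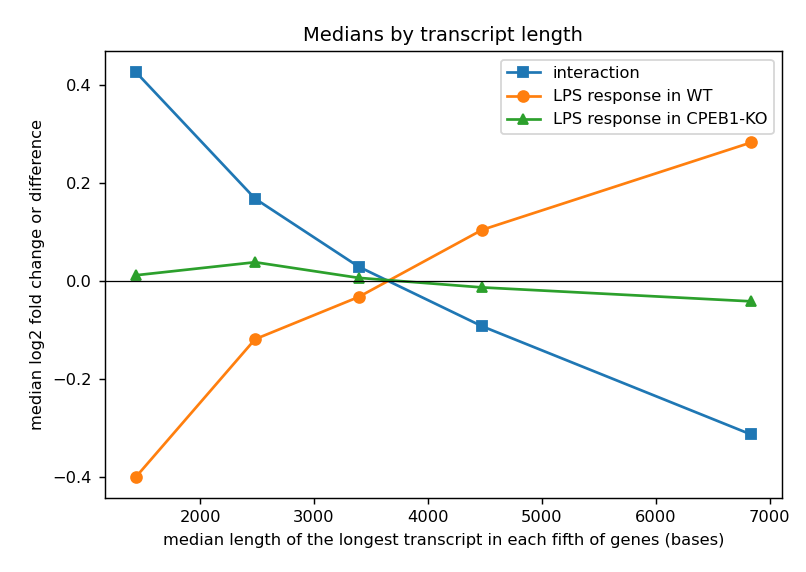
Median LPS response in WT (circles), in CPEB1-KO (triangles) and median interaction (squares) in 5 groups of genes. The groups are by the length of the longest GENCODE M21 transcript, in bases. The WT response runs from -0.40 to 0.28 with length, and the interaction runs the other way, from 0.43 to -0.31.

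The number of genes called in the interaction rested on which libraries and which method were used. Without WT replicate 1 there were 441 genes (2.84%), of which 344 (2.21%) were positive, and 269 of the 441 had their genotype difference only before LPS. For each of the other 11 libraries left out in turn the number was 0 or 1. Leaving out WT-LPS replicate 1 and CPEB1-KO-LPS replicate 3, a choice made after seeing the data, gave 48 genes (0.31%), 7 of them positive (0.0451%) and 41 negative (0.264%) and 29 with a difference only after LPS. These 2 libraries had the highest neuron marker level and the highest erythroid marker level of the 12 (8.72 and 8.87) and the lowest quality weights in voom (0.262 and 0.298). WT replicate 1 also stood apart from its group in neuron markers, at 8.03 against 6.49 and 6.79. Leaving out WT replicate 1 as well gave 1367 (8.84%), of which 794 (5.13%) were positive. In the 9 libraries that remain, neuron markers did not overlap between the genotypes at either time. They were 6.49 and 6.79 in WT against 8.08 to 8.53 in CPEB1-KO. With LPS they were 7.42 and 7.73 in WT-LPS against 8.23 and 8.34 in CPEB1-KO-LPS. Genotype and neuronal RNA therefore cannot be told apart there. The fit without WT replicate 1 alone has the same limit for its genotype differences without LPS. With all 12 libraries the untreated genotypes were also separate, but narrowly, at 8.03 in WT replicate 1 and 8.08 in CPEB1-KO replicate 1.

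**Figure D5:**
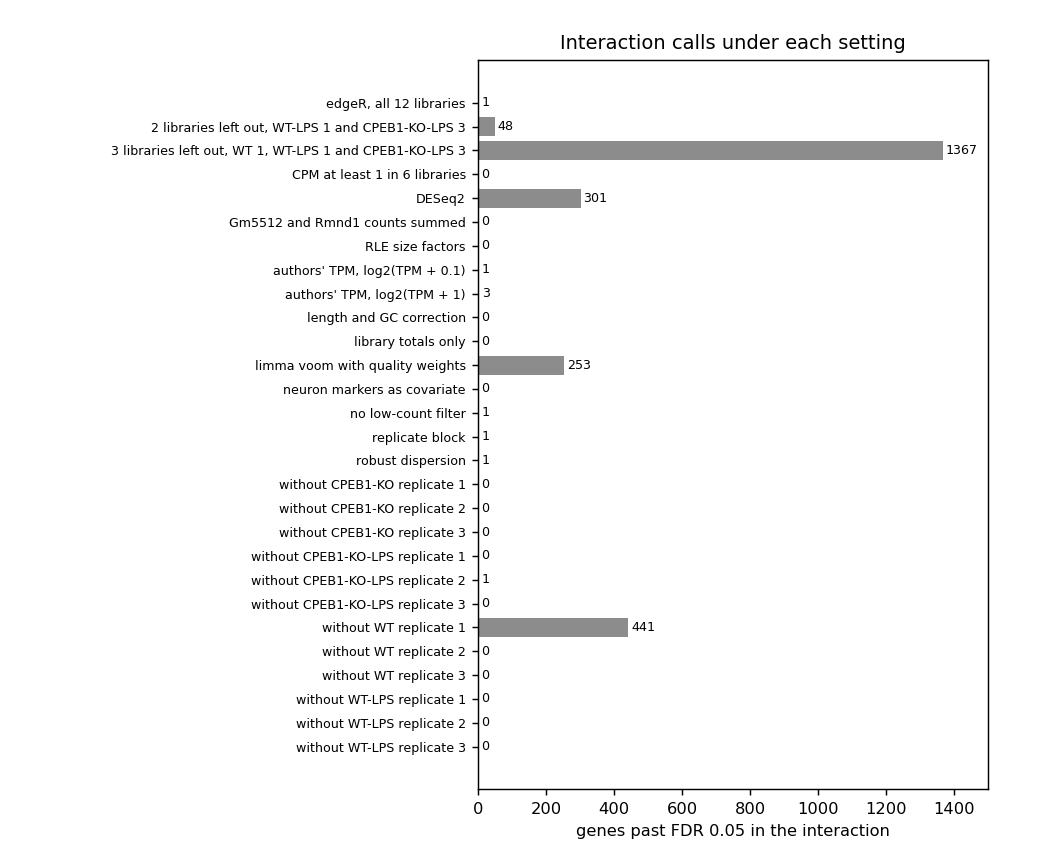
Number of genes past FDR 0.05 in the interaction with all 12 libraries in edgeR (top) and under each alternative setting. The number is 0 to 3 under most settings and reaches 301 with DESeq2, 441 without WT replicate 1 and 1367 with 3 libraries left out.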

How the data were processed

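Gene expression was measured by poly(A) RNA sequencing in 12 libraries. Per the submitters' processing notes, cutadapt, RSEM and the mm10 build were used, their versions not given in the sources used here. Both deposited tables hold the same genes. The authors deposited 2 tables of 23845 genes, one of expected counts, not normalised between libraries, and one of TPM. Of the gene names, 27 that had turned into dates were restored from the accessions in the same row.

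Expected counts were rounded and fitted with edgeR 4.0.16 in R 4.3.3 (filterByExpr, TMM, quasi-likelihood, 1 mean per group, 8 residual degrees of freedom). The interaction, both LPS responses and both genotype differences were contrasts of this fit. Tests were two-sided with Benjamini-Hochberg FDR 0.05 over 15295 genes. SE is the absolute log2 change divided by the square root of F, and n is 3 libraries per group. The test was tried on simulated counts first. TPM values are the authors'. On the log2(TPM + 1) scale the median of all genes lay at 0.29 for LPS in WT and -0.31 for the interaction, against -0.03 and 0.05 in edgeR, so ratios of TPM differ from the fitted changes. Positions and transcripts are from GENCODE M21 (GRCm38, mm10).

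Named were Cpeb1, genes past FDR 0.05, the 10 genes per direction with the smallest interaction p (at least 5 TPM in a group, no predicted genes), up to 3 members of each of 19 pathway lists and 2 of each of 12 marker lists, and a panel of cytokine, acute-phase and microglial genes. D330041H03Rik, Gm13304, Rmnd1, Gh and Prl were named after their values were seen. The question, the lists and the members were chosen with earlier results of these data known. Alternatives were DESeq2 1.42.0, limma 3.58.1 (voom with quality weights, and log2 TPM with pseudocounts of 1 and 0.1), other scalings and filters, robust dispersion, a replicate block, a neuron marker covariate, each library left out, and 4 chosen after seeing the data: 2 or 3 libraries left out, Gm5512 and Rmnd1 summed, and a length and GC correction.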

Additional observations from a re-analysis of the deposited data

Results flagged for a closer look

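The interaction of Gm5512, 7.16 on the log2 scale (adjusted p = 0.0479), was the 1 difference between the LPS responses of the genotypes that passed the test of the difference itself. It was positive under each of the 26 alternatives that kept the gene separate, from 4.20 to 7.63, and passed FDR 0.05 under 10 of them.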

How the results depend on the processing

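With each library left out in turn, the interaction gave 0 to 441 genes, LPS in WT 2714 to 4724, LPS in CPEB1-KO 355 to 1132, genotype without LPS 2 to 1292 and genotype with LPS 1 to 11. The highest values for the interaction and for genotype without LPS both came without WT replicate 1. DESeq2 gave 301 genes for the interaction, 1655 for LPS in CPEB1-KO, 519 for genotype without LPS and 90 with LPS, and voom with quality weights gave 253, 5006, 473 and 3966. With the 2 libraries left out the numbers were 48 for the interaction, 36 without LPS and 1836 with LPS, and with the 3 left out 1367, 3769 and 2813. The interaction gave 0 genes with RLE size factors, library totals only, the stricter filter, the neuron covariate, the summed copies and the length and GC correction, and 3 with log2(TPM + 1). Genotype without LPS gave 12 with log2(TPM + 0.1), 10 with the neuron covariate, 11 with no filter and 3 with library totals only. Genotype with LPS gave 8, 8 and 3 under the same first 3 settings and 11 with log2(TPM + 1). LPS in WT gave 2592 genes when only its 2 groups were fitted. The causes of these differences were not tested.

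Libraries with the same replicate number did not, for the most part, vary together. Pairs with different numbers are not given here for comparison. Of 18 pairs of libraries with the same number, 5 had a correlation of deviations above 0.1 (range -0.316 to 0.324). With a replicate block the interaction gave 1 gene, genotype without LPS 3 and with LPS 1, LPS in WT 3720 and LPS in CPEB1-KO 669.

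Of 3099 alternative values of the interactions of 115 named genes, 2922 kept their direction and side of the threshold, 116 came to pass it, 16 no longer passed and 45, in 13 genes, changed sign. No value that changed sign passed FDR 0.05 before or after. With the 2 libraries left out these were P2ry12 (-1.32), Tnf (-1.71), Cxcl10 (-0.29), Il1b (-0.14), Snap25 (0.22), Tmem119 (-0.15) and Trem2 (-0.71). With the 3 left out they were P2ry12 (-1.17), Cxcl10 (-0.89), Saa3 (-2.82), Tnf (-1.32) and Trem2 (-0.51). With log2(TPM + 0.1) and log2(TPM + 1) they were Cxcl10 (-0.49 and -0.17), P2ry12 (-0.051 and -0.021), Rmnd1 (-0.27 and -0.25), Saa3 (-0.54 and -0.13) and Tnf (-0.57 and -0.65). Voom gave Gm13304 0.33, P2ry12 -0.96, Tnf -0.79 and Trem2 -0.49, the neuron covariate P2ry12 -0.33, Snap25 0.42 and Tnf -1.23, the length and GC correction Kdm5d 0.15, Psmb10 -0.11 and Tnf -0.13, and the replicate block Tnf -0.055. Single libraries left out changed the sign of 8 of these genes. Their ranges were -0.021 (without WT replicate 3) to 0.72 for Cpeb1, -0.097 (without WT replicate 1) to 0.95 for Cxcl10, -0.82 (without CPEB1-KO-LPS replicate 3) to 1.26 for P2ry12, -0.26 (the same library) to 1.64 for Trem2, -0.066 (without CPEB1-KO-LPS replicate 1) to 0.36 for Rmnd1, -2.66 (without WT replicate 1) to 1.59 for Saa3, -1.11 to 0.010 (without WT-LPS replicate 1) for Snap25 and -1.34 (without CPEB1-KO-LPS replicate 3) to 1.04 for Tnf. Cxcl10 was also below 0 without CPEB1-KO-LPS replicate 3, and Tnf without WT replicate 2, CPEB1-KO replicate 2 or WT-LPS replicate 1. The causes of these sign changes were not tested. Of 837 alternative list medians, 126 moved by more than the spread between replicates. At 5.02 to 13.5 M (1e+06) counts and 3 animals per group, the stated intervals hold the differences that the data do not exclude.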

Other observations

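D330041H03Rik, a non-coding transcript on the strand opposite Abca3 (chromosome 17, 24404649 to 24414542), had a pattern close to that of Gm5512 and was named after its values were seen. It read 14.8, 24.8 and 42.1 TPM in WT, 3.72, 1.13 and 0 TPM in WT-LPS, then 1.99, 1.23 and 1.21 TPM in CPEB1-KO and 3.98, 7.38 and 5.13 TPM in CPEB1-KO-LPS. The genotypes did not overlap at either time and their order was opposite, with an interaction of 6.34 ± 1.05 (SE; edgeR quasi-likelihood, adjusted p = 0.133). Whether the counting used strand is not known here, so its reads and those of Abca3 cannot be told apart.

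Of 8 choroid plexus and ependyma markers, 8 fell with LPS in WT and 6 in CPEB1-KO, and of 12 oligodendrocyte lineage markers 5 fell in WT and 4 in CPEB1-KO, beside 14.9% and 2.12% of all genes tested. Both lists had 0 genes at an unadjusted interaction p under 0.05, beside 15.5% of all genes. Ttr, the thyroid hormone carrier of the choroid plexus, read 1093, 1639 and 2243 TPM in WT-LPS, and in CPEB1-KO-LPS 3491, 2482 and 3663 TPM. Gpr17, a receptor of oligodendrocyte precursors, had log2 changes of -3.17 ± 0.39 in WT and -4.24 ± 0.42 in CPEB1-KO, with an interaction of -1.07 ± 0.55 (adjusted p = 0.37).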
